A study of Mus musculus with 11 samples.

Results

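Expression of 10 genes of glutathione metabolism and of the NRF2 antioxidant programme was examined by RNA sequencing in mouse small intestine. The genes were taken by symbol from a table of 24250 genes, and each of the 10 was found: Nfe2l2, Gclc, Gclm, Nqo1, Txnrd1, Srxn1, Prdx1, Gpx1, Gpx2 and Gpx4. The 11 libraries came from 3 groups. FSP mice (4 libraries) were given a Chinese herbal powder that contains Poria, known in Chinese medicine as Wuling San and named here by the initials of its English name. HFD mice (4 libraries) and ND mice (3 libraries) are read here as mice on a high-fat and on a normal diet. The diet of the FSP mice is not stated in the labels, although the series title speaks of obese mice. Age, sex, strain, dose, duration and the stretch of small intestine taken are likewise not stated. Libraries of 1 group are labelled as separate samples but not as separate animals, so the spread that the p-values rest on may be technical.

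NRF2, the protein product of Nfe2l2, is a transcription factor that KEAP1 normally holds in the cytoplasm and marks for degradation. Oxidants and electrophiles release it, and with small MAF partners it binds antioxidant response elements and raises transcription of genes that make glutathione, reduce quinones and keep the thioredoxin system running. Glutathione and thioredoxin then supply electrons to the peroxidases that clear hydrogen peroxide and lipid peroxides, a task of weight in an epithelium exposed to food and microbes.

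Promoter sequence is shown for 3 of the genes whose levels differed most clearly between groups, since textbook NRF2 targets carry a response element near their start. Each sequence is the 250 bases before the RefSeq transcription start, on the gene's strand (assembly GRCm38.p6, the build of the deposited data). Capitals mark matches, on either strand, to the core of the antioxidant response element, TGACNNNGC, or to the related AP-1 pattern, TGANTCA. Srxn1 lies at chr2:152105274-152105523 (plus strand), Gclm at chr3:122245307-122245556 (plus strand) and Gpx2 at chr12:76795555-76795804 (minus strand).
Srxn1: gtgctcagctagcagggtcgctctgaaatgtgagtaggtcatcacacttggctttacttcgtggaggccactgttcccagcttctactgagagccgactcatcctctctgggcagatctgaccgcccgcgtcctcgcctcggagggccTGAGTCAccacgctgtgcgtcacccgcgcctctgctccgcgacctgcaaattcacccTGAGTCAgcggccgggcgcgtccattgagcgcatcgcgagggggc
Gclm: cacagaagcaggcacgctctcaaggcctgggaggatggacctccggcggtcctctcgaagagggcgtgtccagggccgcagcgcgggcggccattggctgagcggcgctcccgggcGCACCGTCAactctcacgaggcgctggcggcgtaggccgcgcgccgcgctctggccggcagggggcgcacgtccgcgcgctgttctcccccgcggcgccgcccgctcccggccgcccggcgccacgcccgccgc
Gpx2: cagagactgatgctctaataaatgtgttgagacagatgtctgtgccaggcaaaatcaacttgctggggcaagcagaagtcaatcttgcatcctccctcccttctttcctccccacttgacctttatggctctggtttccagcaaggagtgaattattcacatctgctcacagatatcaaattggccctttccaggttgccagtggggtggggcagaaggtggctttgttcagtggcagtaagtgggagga
Counting back from the start, the Srxn1 window held TGANTCA at -102 to -96 and at -45 to -39, both times as TGAGTCA. The Gclm window held TGACNNNGC at -134 to -126, read as TGACGGTGC on the other strand, and the Gpx2 window held neither pattern. Among the other members, Prdx1 held TGANTCA at 2 places, of which the one at -131 to -125 overlapped a TGACNNNGC match at -133 to -125. Nfe2l2 held TGACNNNGC at -240 to -232, and Txnrd1 held it at -92 to -84 before 1 of its starts. No match was found for Nqo1, Gpx1 or Gpx4. Promoters of 9 of the 10 members were matched, and Gclc was not. TGACNNNGC occurred in 10.2% of 32851 RefSeq windows of this length, TGANTCA in 6.75%, and 2 or more copies of TGANTCA in 0.338%. A match is a description of letters in this window, not a measured binding site.

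Levels are FPKM, fragments per unit of gene length and of library size, as deposited by the authors. The libraries held about 3.18e+07 to 3.84e+07 fragments, estimated from low values of single-exon genes. Epithelial markers were present in every library, with Vil1 at 738 to 1159 FPKM and Epcam at 396 to 936 FPKM. They were not even between the groups. Epcam averaged 902 ± 36.3 FPKM in FSP, 562 ± 115 FPKM in HFD and 828 ± 50.1 FPKM in ND. By the limma test described below, it was lower in HFD than in ND (adjusted p = 0.0296). It was higher in FSP than in HFD (limma adjusted p = 0.0306). Of 9 epithelial markers, 2 were higher and 1 lower in HFD than in ND, beside 5.36% and 15.1% of all genes. In FSP against HFD 1 was higher and none lower, beside 2.83% and 0.913%. A position score, the mean log2 level of 12 markers of distal small intestine minus that of markers of proximal small intestine, set the HFD libraries below all others. It was 0.86, 0.85, -0.97 and 1.67 in the FSP libraries, -2.52, -1.66, -2.28 and -2.67 in the HFD libraries, and 3.75, 2.66 and 1.06 in the ND libraries, so that FSP and ND overlapped in the score. In the proximal markers alone FSP and ND did not overlap. Their mean log2(FPKM + 1) was 5.89 to 6.53 in FSP and 4.28 to 5.70 in ND. By the same limma test (adjusted p at most 0.05), 10 of the 12 distal markers were lower in HFD than in ND. In FSP against HFD 7 were higher, and in FSP against ND 1 was lower. Of all genes, 15.1%, 2.83% and 0.33% passed in those directions. Of 9 tested proximal markers, 7 were higher and 2 lower in HFD than in ND, beside 5.36% and 15.1% of all genes. In FSP against HFD 1 was higher and 1 lower, beside 2.83% and 0.913%. In FSP against ND 2 were higher (Rbp2 and Apoa4) and none was lower, beside 0.699% and 0.33%. The stretch of intestine taken and the group cannot be told apart here. HFD 1 stood apart, with 40.4% of its summed FPKM in 13 mitochondrially encoded genes, against 12.9% to 26.3% in the other 10 libraries. Marker lists of other cells also varied by summed FPKM. B and plasma cell markers ranged over 207 to 888 in FSP, 218 to 359.5 in HFD and 154 to 189 in ND, and macrophage and neutrophil markers over 14.4 to 137 in FSP, 20.2 to 82.4 in HFD and 23.9 to 29.8 in ND. Smooth muscle markers ranged over 146 to 1071 in FSP, 206 to 842 in HFD and 609 to 846 in ND, and adipocyte markers over 75.4 to 394 in FSP, 94.3 to 160.2 in HFD and 77.0 to 91.2 in ND. Crypt and proliferation markers ranged over 102 to 424 in FSP, 133 to 426 in HFD and 355 to 411 in ND. Their part in the results was not tested. In whole tissue, fewer cells of a type and less RNA per cell cannot be told apart.

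All 10 genes were expressed well above the minimum mean of 1 FPKM used for testing. Prdx1 was the most abundant in every group, at 898 ± 76.5 FPKM in FSP, 798 ± 133 FPKM in HFD and 925 ± 83.8 FPKM in ND (SD, n = 4, 4 and 3). Nqo1 was the least abundant in every group, at 6.73 ± 1.34 FPKM in FSP, 10.8 ± 3.90 FPKM in HFD and 10.1 ± 0.67 FPKM in ND. The middle of the order differed between the groups. Gpx2 was the fourth most abundant member in FSP and the sixth in HFD, and was the second in ND, where its range of values overlapped that of Prdx1. In FSP the ranges of Gpx1 and Gpx2, of Gpx2 and Srxn1, of Nfe2l2 and Gclm, and of Gclm and Txnrd1 overlapped. In HFD Gclm was the fourth, with values that overlapped those of Gpx1 above it and not those of Srxn1 below it. Srxn1, Gpx2, Nfe2l2 and Txnrd1 followed in HFD with overlapping ranges. In ND, Gpx4 and Gpx1 overlapped, as did Txnrd1 and Nfe2l2, and Gclm stood below both without overlap.

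**Figure D1:**
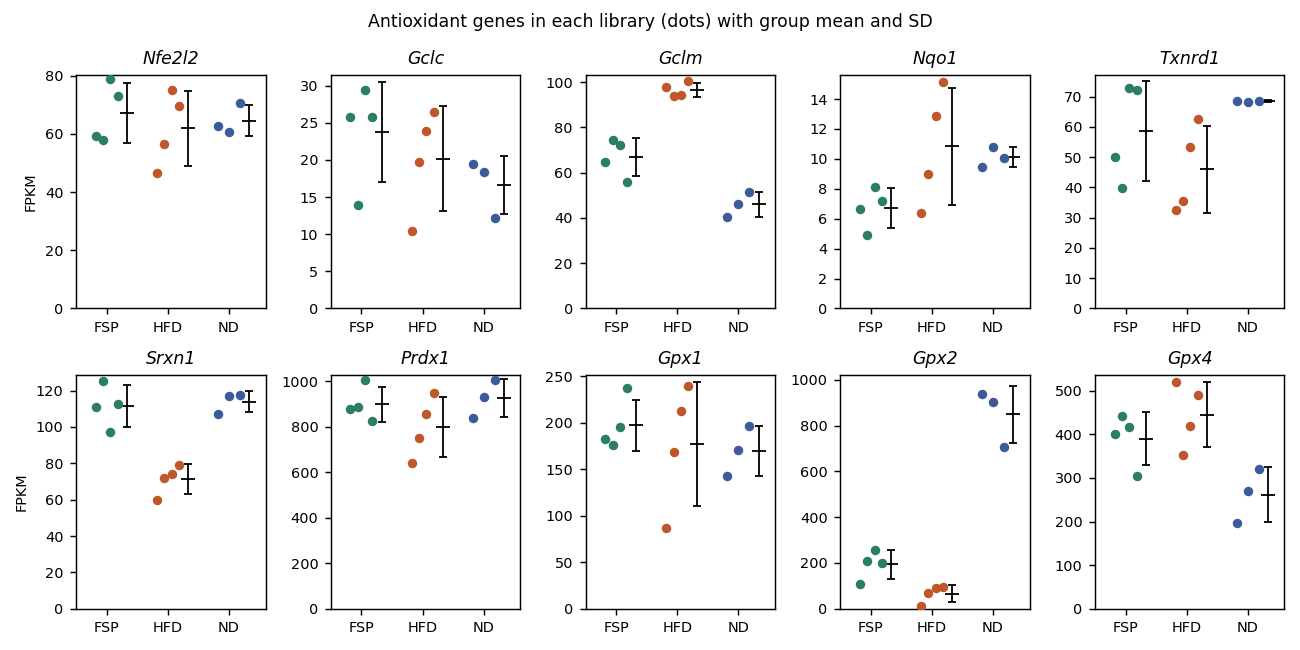
FPKM of the 10 antioxidant genes (y axis, linear and from 0, a scale for each gene) in every library (dots) of FSP, HFD and ND, with the group mean and SD as bars. Gpx2 stands highest in ND, Gclm highest in HFD, and Srxn1 is lower in HFD than in both other groups.

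Differences were tested with limma on log2(FPKM + 1) over all 10296 genes with a mean of at least 1 FPKM, and adjusted p-values (Benjamini-Hochberg, threshold 0.05) are over all of these. In HFD against ND, 2 of the 10 members were higher (Gclm and Gpx4), 2 were lower (Srxn1 and Gpx2) and 6 did not pass. The background was high in this comparison: 20.5% of all tested genes passed, 5.36% higher and 15.1% lower. In FSP against HFD, Srxn1 was higher, Gclm was lower and 8 members did not pass, where 3.74% of all genes passed, 2.83% higher and 0.913% lower. In FSP against ND none of the 10 passed by limma, where 4 of the 10 and 14.4% of all genes had an unadjusted p under 0.05, and 1.03% of all genes passed, 0.699% higher and 0.33% lower. With so few members these counts are not set apart from the background by any test. FSP against HFD uses the same HFD libraries as HFD against ND, so opposite signs in the 2 comparisons are not independent of each other. The median log2 change of all tested genes was -0.21 for HFD against ND, 0.12 for FSP against HFD and -0.07 for FSP against ND. Median-ratio scaling of the libraries brought these medians to between -0.01 and 0.01. It changed the split of genes past the threshold to 1093 higher and 922 lower in HFD against ND, beside 552 and 1557 as deposited. For FSP against HFD the split became 180 and 167, beside 291 and 94. Leaving out ND 1 or ND 2 lowered the counts for HFD against ND the most, to 264 higher and 613 lower without ND 1 and to 289 higher and 560 lower without ND 2. For FSP against HFD the lowest counts were 34 higher and 14 lower without FSP 4 and 52 higher and 16 lower without HFD 3, and without HFD 1 they were 129 and 45.

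**Figure D2:**
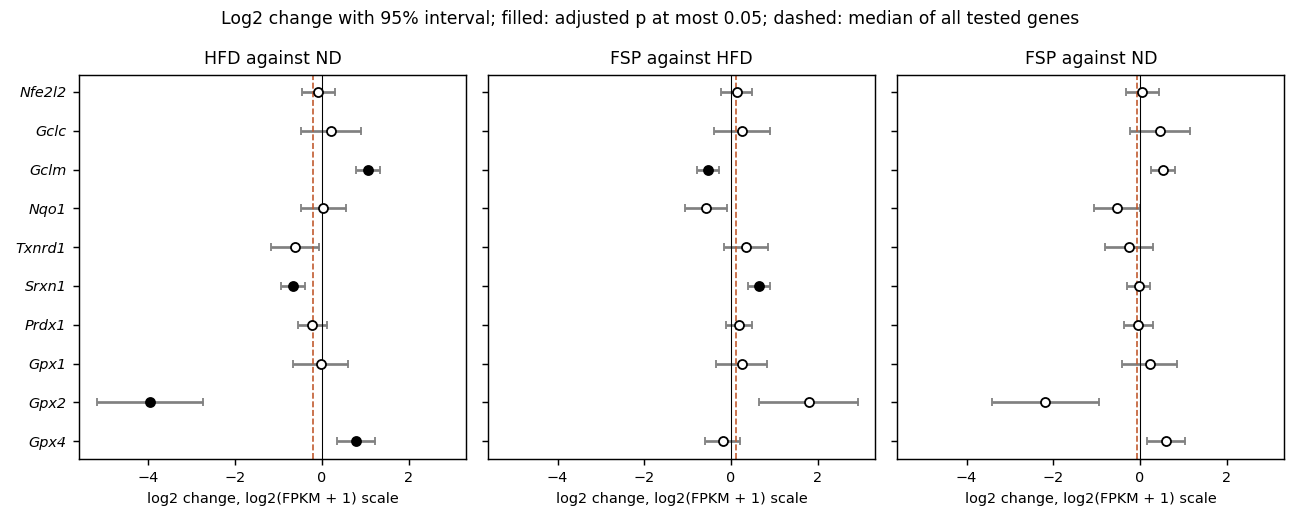
Log2 change on the log2(FPKM + 1) scale (x axis) of each antioxidant gene with its 95% interval, in 3 panels (HFD against ND, then FSP against HFD, then FSP against ND). Filled points passed an adjusted p of 0.05, and the dashed line is the median of all tested genes. Gpx2 has the largest change among the 10 genes in each panel and the widest interval.

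The glutathione peroxidases showed the widest differences among the members. Gpx2, the gastrointestinal form, which reduces hydrogen peroxide and fatty acid hydroperoxides in the epithelium, was about an order of magnitude lower in HFD than in ND and intermediate in FSP. Gpx4, which reduces lipid hydroperoxides within membranes and restrains ferroptosis, was higher in HFD than in ND. Gpx1, the ubiquitous cytosolic form, did not pass in any comparison. All 3 are selenoproteins.

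Gpx2 (chromosome 12, 76792333 to 76795554, minus strand, mm10) measured 110.0, 207, 258 and 198 FPKM in the FSP libraries, 13.2, 66.7, 89.6 and 96.0 FPKM in the HFD libraries, and 938, 903 and 706 FPKM in the ND libraries. No library of any group fell within the range of another group. The HFD mean of 66.4 ± 37.6 FPKM was 0.0782 times the ND mean of 849 ± 125 FPKM, a log2 change of -3.97 (SE 0.56, limma adjusted p = 0.00126), or -3.76 relative to the median of all genes. FSP averaged 193 ± 61.5 FPKM, 2.91 times HFD, but the log2 change of 1.79 (95% interval 0.65 to 2.92) did not pass (limma adjusted p = 0.0871). Against ND, FSP was at 0.228 times the level, a log2 change of -2.18 (95% interval -3.41 to -0.96), which did not pass either (limma adjusted p = 0.0984). HFD 1 held the lowest Gpx2 value of all and widened the estimated spread. Without it Gpx2 changed by -3.33 for HFD against ND (adjusted p = 0.000334), by 1.14 for FSP against HFD (adjusted p = 0.0580) and by -2.18 for FSP against ND (adjusted p = 0.00432). Fntb, which overlaps Gpx2 on the other strand, measured 2.94 to 5.35 FPKM, far below Gpx2, and the use of strand in counting is not stated.

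Gpx4 (chromosome 10, 80047166 to 80056439, plus strand) measured 399.7, 442, 416 and 304 FPKM in FSP, 520.3, 353, 418 and 489.5 FPKM in HFD, and 196, 269 and 321 FPKM in ND. All HFD values lay above all ND values, whereas 1 FSP library lay within the ND range. The HFD mean of 445 ± 75.1 FPKM was 1.70 times the ND mean of 262 ± 62.9 FPKM (log2 change 0.78, SE 0.20, limma adjusted p = 0.0201). Relative to the median of all genes the change was 0.99. Without ND 1 the adjusted p was 0.0966 and without ND 2 it was 0.0632, so the call was lost without either. FSP averaged 390.5 ± 60.1 FPKM and did not differ past the threshold from HFD (log2 change -0.19, 95% interval -0.59 to 0.22) or from ND (0.59, 95% interval 0.15 to 1.03, limma adjusted p = 0.199). Gpx1 (chromosome 9, 108338903 to 108340343, plus strand) measured 182, 176, 195 and 237 FPKM in FSP, 86.9, 168, 213 and 239 FPKM in HFD, and 142, 171 and 196 FPKM in ND. Its groups overlapped throughout, and its lowest value was in HFD 1.

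The makeup of the family is given as shares of its summed level. Gpx1 to Gpx4 together summed to 802 ± 74.2 FPKM in FSP, 704 ± 106 FPKM in HFD and 1296 ± 61.9 FPKM in ND. Gpx2 made up 23.8 ± 6.02% of that sum in FSP, 9.18 ± 4.77% in HFD and 65.4 ± 7.70% in ND, while Gpx4 made up 48.7 ± 6.71% in FSP, 63.8 ± 11.9% in HFD and 20.3 ± 5.45% in ND. These shares were chosen after the values had been seen and are given with no test. A ratio of 2 genes within a library does not depend on how the library was scaled. The ratio of Gpx2 to Gpx1 was 0.604, 1.18, 1.32 and 0.838 in FSP, 0.151, 0.397, 0.420 and 0.401 in HFD, and 6.60, 5.27 and 3.60 in ND. The 3 groups did not overlap in this ratio. Its log2 differed by -3.98 for HFD against ND, by 1.57 for FSP against HFD and by -2.41 for FSP against ND. Each had a two-sided exact permutation p of 0.0286, the smallest possible with these numbers of libraries, and an adjusted p of 0.0612 over the 15 ratio tests made. No ratio test passed 0.05 after that adjustment. The ratio of Gpx4 to Gpx1 was higher in HFD than in ND in every library (log2 difference 0.81, exact permutation p = 0.0857, adjusted p = 0.143), and the difference was 0.42 without HFD 1.

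**Figure D3:**
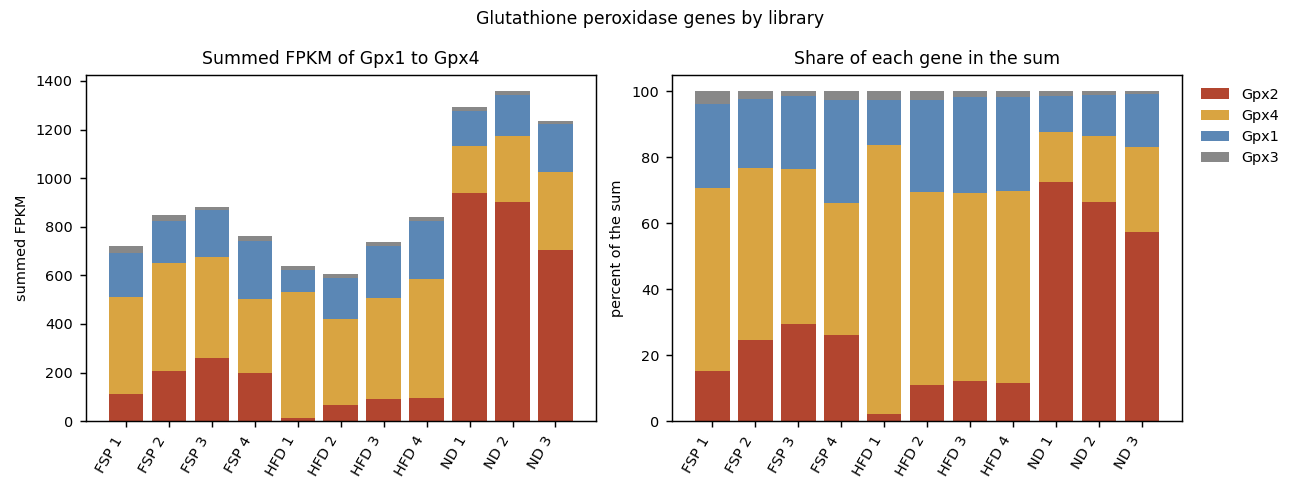
Summed FPKM of Gpx1, Gpx2, Gpx3 and Gpx4 in each library (left, y axis from 0) and the percent of that sum held by each gene (right), with FSP, HFD and ND libraries from left to right. Gpx2 holds 57.2% to 72.5% of the sum in ND libraries, against 15.2% to 29.3% in FSP and 2.06% to 12.2% in HFD libraries.

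Glutathione synthesis begins with glutamate-cysteine ligase, the rate-limiting enzyme, made of the catalytic subunit GCLC and the modifier subunit GCLM, which raises its affinity for glutamate. The modifier subunit gene rose in HFD and was intermediate in FSP, while the catalytic subunit gene did not pass in any comparison. Gclm (chromosome 3, 122245557 to 122270732, plus strand) measured 64.8, 74.5, 72.1 and 55.8 FPKM in FSP, 97.8, 94.0, 94.2 and 100.4 FPKM in HFD, and 40.3, 46.3 and 51.5 FPKM in ND. The 3 groups did not overlap, and the HFD libraries lay close together. The HFD mean of 96.6 ± 3.08 FPKM was 2.10 times the ND mean of 46.0 ± 5.60 FPKM (log2 change 1.06, SE 0.13, limma adjusted p = 0.000725). Relative to the median of all genes the change was 1.27. FSP averaged 66.8 ± 8.43 FPKM and was lower than HFD (log2 change -0.53, SE 0.12, limma adjusted p = 0.0313). Against ND the FSP change of 0.53 (95% interval 0.25 to 0.80) did not pass (limma adjusted p = 0.0734). The call in FSP against HFD was lost without any 1 of FSP 1, FSP 4, HFD 1, HFD 3, HFD 4 or ND 2 (adjusted p 0.0647 to 0.101), while the log2 change stayed between -0.59 and -0.45 whichever library was left out.

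Gclc (chromosome 9, 77754535 to 77794485, plus strand) measured 25.8, 14.0, 29.5 and 25.8 FPKM in FSP, 10.4, 19.7, 23.9 and 26.5 FPKM in HFD, and 19.4, 18.4 and 12.2 FPKM in ND. The groups overlapped. FSP 2 and HFD 1 were the lowest of their groups for Gclc and also for the summed crypt and proliferation markers (102 and 133 FPKM). They were likewise the lowest for the summed smooth muscle markers (146 and 206 FPKM) and adipocyte markers (75.4 and 94.3 FPKM). The part of these differences in the Gclc values was not tested. The 95% interval of the log2 change ran from -0.48 to 0.90 for HFD against ND and from -0.39 to 0.90 for FSP against HFD. The 95% intervals for Gclm in these comparisons, 0.79 to 1.33 and -0.79 to -0.28, overlapped those of Gclc. The ratio of Gclc to Gclm averaged -1.54 ± 0.59 in FSP, -2.35 ± 0.61 in HFD and -1.49 ± 0.53 in ND on the log2 scale. Its differences did not pass (exact permutation p = 0.171 in HFD against ND and 0.114 in FSP against HFD).

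The thioredoxin branch runs through TXNRD1, the cytosolic thioredoxin reductase, to peroxiredoxins such as PRDX1, which clear hydrogen peroxide, and SRXN1, sulfiredoxin, repairs peroxiredoxins that have been over-oxidized. Srxn1 was lower in HFD than in both other groups, Prdx1 passed in no comparison, and Txnrd1 was lower in every HFD library than in every ND library without passing. Srxn1 (chromosome 2, 152105516 to 152111376, plus strand) measured 111, 125, 97.1 and 112 FPKM in FSP, 59.6, 72.1, 74.2 and 79.3 FPKM in HFD, and 107, 117 and 117 FPKM in ND. All HFD values lay below those of the other groups, which overlapped each other. The HFD mean of 71.3 ± 8.40 FPKM was 0.626 times the ND mean of 114 ± 5.78 FPKM (log2 change -0.68, SE 0.13, limma adjusted p = 0.00435), or -0.46 relative to the median of all genes. FSP averaged 111 ± 11.6 FPKM, 1.56 times HFD (log2 change 0.64, SE 0.12, limma adjusted p = 0.0182). FSP and ND differed by -0.04 (95% interval -0.31 to 0.24), so a difference as large as that between HFD and ND lies outside the interval. With median-ratio scaling neither Srxn1 call held, at -0.43 in HFD against ND (adjusted p = 0.0616) and 0.49 in FSP against HFD (adjusted p = 0.0748). The FSP against HFD call was also lost without FSP 4 (adjusted p = 0.0659) or HFD 3 (adjusted p = 0.0545).

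Prdx1 (chromosome 4, 116685544 to 116700822, plus strand) measured 876, 887, 1005 and 824 FPKM in FSP, 639.6, 749, 855 and 948 FPKM in HFD, and 839, 929.7 and 1007 FPKM in ND. Its groups overlapped, with a log2 change of -0.22 in HFD against ND (95% interval -0.56 to 0.11). The ratio of Srxn1 to Prdx1, the repair enzyme over its substrate, was 0.126, 0.141, 0.0966 and 0.137 in FSP, 0.0931, 0.0963, 0.0868 and 0.0837 in HFD, and 0.128, 0.126 and 0.117 in ND. All HFD ratios lay below those of FSP and ND, although FSP 3 lay only just above HFD 2. The log2 ratio differed by -0.46 in HFD against ND and by 0.46 in FSP against HFD, each with an exact permutation p of 0.0286 (adjusted p = 0.0612).

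Txnrd1 (chromosome 10, 82833951 to 82897712, plus strand) measured 49.9, 39.7, 72.7 and 72.1 FPKM in FSP, 32.5, 35.6, 53.3 and 62.4 FPKM in HFD, and 68.7, 68.1 and 68.7 FPKM in ND. The ND libraries were nearly equal, and the FSP and HFD libraries were spread widely. The log2 change in HFD against ND was -0.62 (95% interval -1.17 to -0.06, limma adjusted p = 0.1003), and without HFD 4 it was -0.78 and passed (adjusted p = 0.0496). Nqo1, a quinone reductase and a standard reporter of NRF2 activity, lies on chromosome 8 (107388225 to 107403206, minus strand). It measured 6.66, 4.94, 8.12 and 7.20 FPKM in FSP, 6.41, 8.98, 12.9 and 15.1 FPKM in HFD, and 9.44, 10.8 and 10.1 FPKM in ND. All FSP values lay below the ND values, and the HFD range overlapped both groups. The log2 change was -0.57 in FSP against HFD (95% interval -1.06 to -0.09, limma adjusted p = 0.190) and -0.54 in FSP against ND (95% interval -1.06 to -0.01, limma adjusted p = 0.331). After median-ratio scaling the FSP against HFD change was -0.70 and passed (adjusted p = 0.0454), and after quantile normalization it was also -0.70 (adjusted p = 0.0385).

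Within libraries Nqo1 and Txnrd1, both NADPH-using reductases and both textbook NRF2 targets, stood in different proportions in the 3 groups. The ratio of Nqo1 to Txnrd1 was 0.134, 0.125, 0.112 and 0.0999 in FSP, 0.197, 0.252, 0.241 and 0.242 in HFD, and 0.138, 0.158 and 0.147 in ND. The 3 groups did not overlap, with FSP lowest and HFD highest. The log2 ratio differed by 0.66 in HFD against ND and by -0.99 in FSP against HFD (exact permutation p = 0.0286 for each, adjusted p = 0.0612), and by -0.33 in FSP against ND (exact permutation p = 0.0571, adjusted p = 0.107).

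Nfe2l2 itself (chromosome 2, 75675513 to 75704641, minus strand) did not pass in any comparison. It measured 59.2, 57.9, 78.7 and 73.0 FPKM in FSP, 46.4, 56.5, 74.9 and 69.6 FPKM in HFD, and 62.7, 60.6 and 70.5 FPKM in ND. The groups overlapped, and the 95% interval of the log2 change was -0.46 to 0.30 for HFD against ND, -0.22 to 0.48 for FSP against HFD and -0.33 to 0.43 for FSP against ND. NRF2 is regulated largely through the stability of the protein, which RNA levels do not measure. Of 9 tested genes that regulate NRF2 or share its binding sites, 2 were lower in HFD than in ND and none was higher, with a median log2 change of -0.27 beside -0.21 for all genes. That count is near the background, where 15.1% of all genes were lower and 20.5% passed in either direction. Bach1, a repressor that competes for the same elements, was at 13.3 ± 2.54 FPKM in HFD and 28.7 ± 1.37 FPKM in ND (log2 change -1.07, limma adjusted p = 0.00165). Nfe2l1, a related transcription factor, was at 8.23 ± 1.68 FPKM in HFD and 13.5 ± 1.79 FPKM in ND (-0.67, adjusted p = 0.0321), and its call was lost without HFD 1, ND 1 or ND 2. In FSP against HFD only Bach1 of the 9 passed, and it was higher in FSP, where 2.83% of all genes were higher. It was at 23.2 ± 3.77 FPKM in FSP and 13.3 ± 2.54 FPKM in HFD (0.76, adjusted p = 0.0226), and that call was lost without FSP 2, FSP 4, HFD 3 or HFD 4. Keap1, which holds NRF2 back, averaged 9.99 ± 0.43 FPKM in FSP, 8.98 ± 1.42 FPKM in HFD and 11.5 ± 0.49 FPKM in ND and passed in no comparison.

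Among 16 other tested NRF2 targets, 3 were higher and 1 lower in HFD than in ND, beside 5.36% and 15.1% of all genes, with a median log2 change of -0.01 beside -0.21. With 4 of 16 passing, the share is near the 20.5% of all genes. Ugdh, which makes UDP-glucuronate for conjugation, was at 218 ± 50.7 FPKM in HFD and 114 ± 6.38 FPKM in ND (0.91, limma adjusted p = 0.00673). Fth1, the ferritin heavy chain that stores iron (0.69, adjusted p = 0.0222), and Blvrb, a biliverdin reductase (0.50, adjusted p = 0.0344), were the others that rose. Both of those calls were lost without ND 1 or ND 2, and that of Blvrb also without any 1 HFD library. Gsr, glutathione reductase, which returns oxidized glutathione to its reduced form, fell to 24.0 ± 9.39 FPKM in HFD, against 128 ± 14.8 FPKM in ND (-2.47, adjusted p = 0.000870). Beside 0.913% lower and 2.83% higher among all genes, 2 of the 16 targets were lower in FSP than in HFD and none was higher. They were Me1, malic enzyme, which supplies NADPH, at 12.3 ± 1.498 FPKM in FSP and 35.1 ± 15.9 FPKM in HFD (-1.33, adjusted p = 0.0244), and Ugdh, at 127 ± 21.9 FPKM in FSP and 218 ± 50.7 FPKM in HFD (-0.76, adjusted p = 0.0362). The Me1 call was lost without FSP 1, FSP 2, FSP 4 or HFD 3, and the Ugdh call without any 1 of 9 of the 11 libraries.

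Of 14 tested genes of glutathione supply and breakdown, 5 were lower in HFD than in ND and none was higher, beside 15.1% and 5.36% of all genes, with a median log2 change of 0.02 beside -0.21. With median-ratio scaling 3 of the 14 were higher and 4 lower, with a median of 0.25 beside -0.01 for all genes. Of all 10296 genes, 1093 were then higher and 922 lower. Besides Gsr, which is also in the list of NRF2 targets, the genes called lower without that scaling were Slc1a1, a transporter that brings in glutamate and cysteine (-2.96, limma adjusted p = 0.00147), and the peptidases Dpep1 (-0.74, adjusted p = 0.00830), Anpep (-1.27, adjusted p = 0.0153) and Lap3 (-0.64, adjusted p = 0.0198). The Anpep call was lost without ND 1 or ND 2, and the Lap3 call without ND 2 or ND 3. The 3 peptidase genes were also the ones that passed in FSP against HFD, all higher in FSP: Dpep1 at 291 ± 38.9 FPKM in FSP and 170.2 ± 27.0 FPKM in HFD, Lap3 at 415 ± 70.9 FPKM in FSP and 253 ± 34.5 FPKM in HFD, and Anpep at 2122 ± 353 FPKM in FSP and 969 ± 356 FPKM in HFD. Each of these 3 calls was lost when some single libraries were left out, FSP 4 and HFD 3 among them. Of all genes, 2.83% were higher and 0.913% lower in FSP than in HFD. Dpep1, Anpep and Lap3 are brush-border or cytosolic peptidases that also serve protein digestion.

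Some of the glutathione S-transferases, which join glutathione to electrophiles, rose in HFD. Of 22 tested, 8 were higher in HFD than in ND and none was lower, beside 5.36% and 15.1% of all genes, with a median log2 change of 0.61 beside -0.21 for all genes. Gsta1 was at 198 ± 86.7 FPKM in HFD and 26.9 ± 4.82 FPKM in ND (2.74, limma adjusted p = 0.000789). Gstt1 was at 73.8 ± 15.9 FPKM in HFD and 25.2 ± 8.30 FPKM in ND (1.53, adjusted p = 0.00178), Gstm6 at 31.0 ± 11.6 FPKM in HFD and 5.98 ± 2.46 FPKM in ND, and Mgst3 at 388 ± 44.3 FPKM in HFD and 221 ± 38.9 FPKM in ND. The transferase median in FSP against HFD was -0.60, beside 0.12 for all genes. Of all genes 0.913% were lower in FSP and 2.83% higher, and of the 22 transferases 2 were lower and none was higher. These were Gstt1 at 28.8 ± 5.55 FPKM in FSP and 73.8 ± 15.9 FPKM in HFD (-1.32, adjusted p = 0.0135) and Gstm6 at 9.63 ± 5.12 FPKM in FSP and 31.0 ± 11.6 FPKM in HFD (-1.63, adjusted p = 0.0290). The count of lower transferases was 6 after median-ratio scaling and 8 after quantile normalization, where 167 and 194 of all 10296 genes were lower. The Gstt1 call was lost without FSP 4. The Gstm6 call was lost without any 1 of 7 libraries. With the position score as a covariate none of all 10296 tested genes passed in either comparison, so the lack of passing transferases there is not particular to them. The transferase medians in that fit were -0.05 for HFD against ND and -0.17 for FSP against HFD. HFD did not overlap the other groups in score, so that fit cannot tell position and group apart. Values of single Gsta and Gstm genes are uncertain, since close paralogs can share reads.

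Among 20 other tested peroxide and superoxide enzymes, Txnip, which binds and inhibits thioredoxin, was the single gene to pass in HFD against ND, at 81.7 ± 2.69 FPKM in HFD and 127 ± 8.11 FPKM in ND (-0.62, limma adjusted p = 0.0163). The call was lost without ND 1 or ND 2, and with median-ratio scaling, under which 5 of the 20 were higher and none was lower. Of all 10296 genes, 1093 were higher and 922 lower under that scaling. As deposited, 1 of the 20 passing is a share below the 20.5% of all genes, and the list median was 0.08 beside -0.21 for all genes. No gene of that list passed in FSP against HFD by limma, where 6 of the 20 and 18.7% of all genes had an unadjusted p under 0.05. Of 24 tested selenoproteins and selenocysteine insertion factors, Gpx4 was higher in HFD than in ND, and Gpx2, Selenot (-0.52, adjusted p = 0.0233) and Secisbp2 (-0.43, adjusted p = 0.0356) were lower. The list median was 0.03 beside -0.21 for all genes. With 4 of 24 passing, the share is below the 20.5% of all genes. The Selenot call was lost without ND 1 or ND 2, and that of Secisbp2 without any 1 of 6 libraries. With median-ratio scaling 6 of the 24 were higher and 1 was lower, beside 1093 and 922 of all 10296 genes. None of the 24 passed in FSP against HFD, where 3 of them and 18.7% of all genes had an unadjusted p under 0.05. In FSP against ND no gene of these 6 lists passed by limma, and the number with an unadjusted p under 0.05 was 0 of 9 NRF2 regulators, 4 of 16 targets, 3 of 14 supply genes, 4 of 22 transferases, 1 of 20 peroxide enzymes and 5 of 24 selenoprotein genes, beside 14.4% of all genes.

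**Figure D4:**
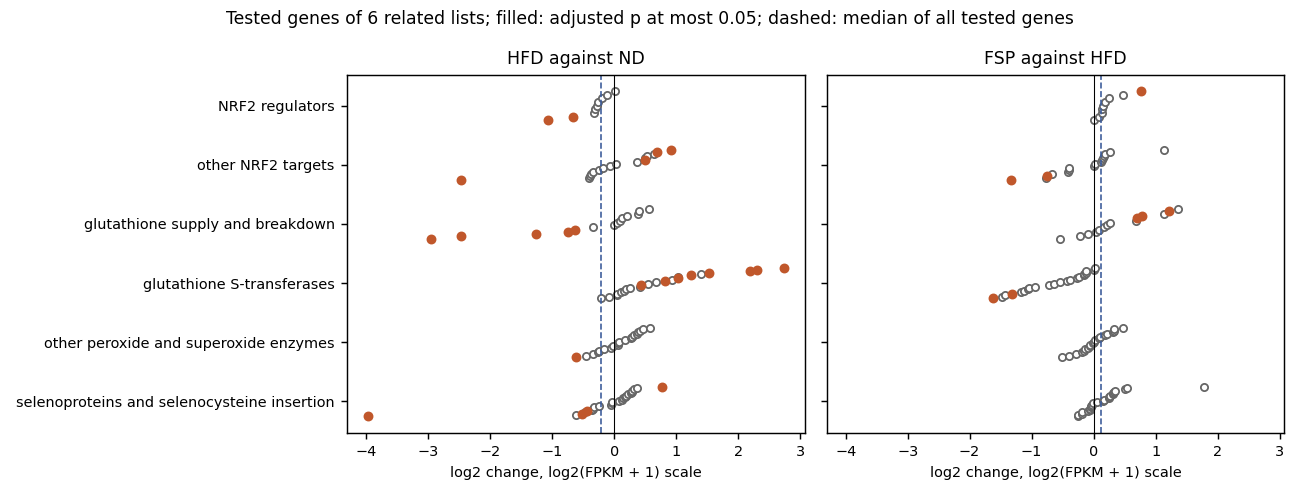
Log2 change (x axis) of every tested gene of 6 related lists, for HFD against ND and FSP against HFD. Each point is a gene, filled where the adjusted p was at most 0.05, and the dashed line is the median of all tested genes. Glutathione S-transferases lie mostly to the right of 0 in HFD against ND (median 0.61) and to the left in FSP against HFD (median -0.60).

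For each member past the threshold, the 3 tested genes closest to it in centred log2(FPKM + 1) over the 11 libraries were found by root mean square difference. The genes closest to Gpx2 were Slc1a1 (0.66), Gsr (0.70) and Gsdmc4 (0.78), against a standard deviation of 1.82 for Gpx2 itself. Gsr averaged 50.8 FPKM in FSP, 24.0 FPKM in HFD and 128 FPKM in ND, the same order of groups as Gpx2. Since Gsr was picked by its likeness to Gpx2 in these libraries, that order is no separate result. The closest to Srxn1 were the tight junction gene Cldn7 (0.04), Plpp2 (0.08) and Lsr (0.09), with Cldn7 at 614 FPKM in FSP, 375 FPKM in HFD and 613 FPKM in ND. Those closest to Gclm were Ifnar2 (0.08), Chchd10 (0.13) and the microsomal transferase Mgst3 (0.13). Those closest to Gpx4 were Dcst1 (0.12), Rhoc (0.12) and Ankrd54 (0.13).

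The members that passed are set here beside the position score, and no association with it was tested. Gclm ran in the reverse order of the groups' scores and Gpx4 was lowest in the 2 ND libraries with the highest scores. Srxn1 was lowest in the HFD group, which had the lowest scores, but did not follow the score within HFD or ND. HFD 4, with a score of -2.67, had the highest HFD value (79.3 FPKM), and ND 1, with a score of 3.75, had the lowest ND value (107 FPKM). Gpx2 ran in the order of the groups' scores and followed the score within ND, but not in every library. FSP 4, with a score of 1.67, had 198 FPKM, whereas ND 3, with a score of 1.06, had 706 FPKM. Of these libraries FSP 4 had the higher mean log2(FPKM + 1) of proximal markers, 5.89 against 5.70. FSP 3 had the lowest score of its group and the highest Gpx2 value of its group. With the score as a covariate in the limma fit, no gene passed in HFD against ND or FSP against HFD (656 and 676 genes had an unadjusted p under 0.05), and 8 genes passed in FSP against ND, none of them a member. In that fit the log2 change of Gpx2 in HFD against ND was -3.90 (SE 1.41), that of Gclm 0.50 (SE 0.25), that of Srxn1 -0.55 (SE 0.31) and that of Gpx4 -0.25 (SE 0.36). The Gpx2 estimate was thus about the same size as before with a wider error, and the sign of the Gpx4 estimate was reversed. HFD and ND did not overlap in score, so these estimates rest on slopes within the groups. The fit cannot tell position and group apart, and no conclusion is drawn from it for any member.

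**Figure D5:**
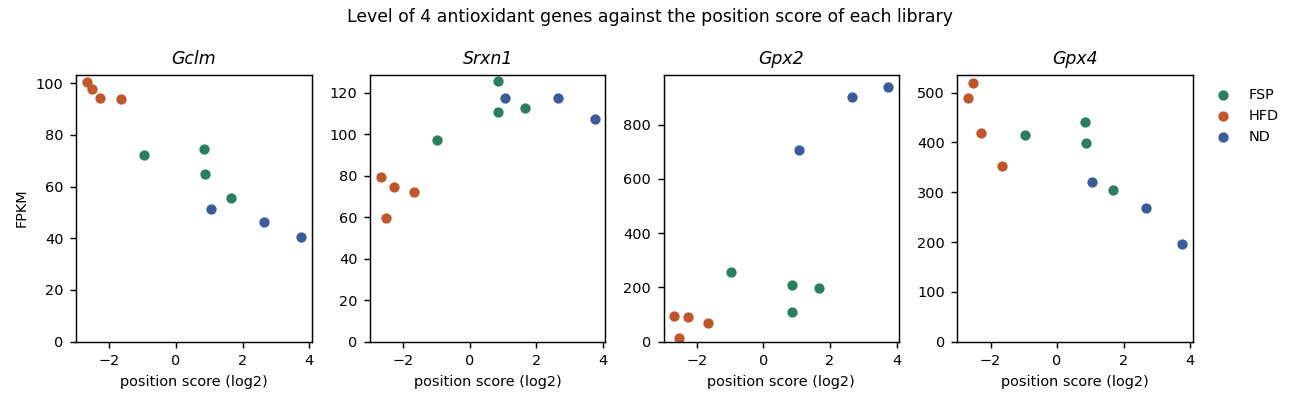
FPKM (y axis, from 0) of Gclm, Srxn1, Gpx2 and Gpx4 against the position score of each library (x axis, log2 units, higher where distal markers are higher), coloured by group. HFD libraries lie between -2.67 and -1.66, FSP libraries between -0.97 and 1.67 and ND libraries between 1.06 and 3.75. FSP and ND overlap in score only through FSP 4 (1.67) and ND 3 (1.06).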

How the data were processed

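Small intestine RNA was extracted with TRIzol and made into libraries with the VAHTS Universal V6 kit, per the labels' protocols. Per the submitters' processing notes, the tools were fastp, HISAT2, HTSeq and R 3.2.0, on mm10. No annotation, strand setting or FPKM tool is named in the sources used here. FPKM per gene and library is what the authors deposited. Since this unit is relative to the library total, an abundant class of RNA lowers every other gene. No sample column was left unused (0 columns). Single-library files of FSP list 24250 genes and those of HFD and ND 24294, of which 23609 are shared with the table of all libraries, with identical values. Whether FSP was tabulated apart from the other groups is not stated, and that difference and the group cannot be told apart.

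FPKM was tested as log2(FPKM + 1), which understates changes of low genes, with limma 3.58.1 (R 4.3.3, intensity trend). The 3 groups entered 1 fit over 10296 genes with a mean of at least 1 FPKM. Tests were two-sided, with Benjamini-Hochberg adjustment over the genes of each comparison. The 5 ratios of members were tested by two-sided exact permutation (scipy 1.17.1), 15 tests in all. The fit and the permutation test were tested on simulated data. Depth came from values of single-exon genes, of which 75.3% to 79.9% of those at or under 10 fragments lay within 0.05 of a whole fragment. The 15 within-group pairs of libraries had r of 0.956 to 0.994 across genes, and none was identical. Pseudogenes of Gpx2, Gpx4 and Prdx1 exist that the table does not list, and reads shared with them cannot be checked. Gene positions are from GENCODE M21 (GRCm38), promoters from RefSeq GRCm38.p6.

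The members, lists and tests were chosen with earlier results of these data known. Named genes were all members, per list and comparison up to 4 genes with the smallest p, plus 1 where 5 or fewer passed, and the 3 genes closest in pattern to each member that passed. Alternatives were the pseudocount (0.1), the filter (none, or a mean of 5 FPKM), 4 scalings, a 2-group fit, robust moderation, a replicate block, the position score as a covariate, and leaving out each library.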

Additional observations from a re-analysis of the deposited data

Results flagged for a closer look

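In groups of 4 libraries, 30 sets of values were screened for a library far from the rest (Dixon's critical value 0.829), and 3 had one, where chance gives about 1 in 20. The log2 ratio of Gclc to Gclm was -2.41 in FSP 2, against -1.33 to -1.11 in the other FSP libraries. The log2 ratio of Gpx2 to Gpx1 was -2.72 in HFD 1, against -1.33 to -1.25 in the other HFD libraries. The log2 ratio of Gpx4 to Gpx1 was 2.58 in HFD 1, against 0.97 to 1.07 in the other HFD libraries. HFD 1 also had the highest mitochondrial share, 40.4% of summed FPKM, whose part in these ratios was not tested.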

How the results depend on the processing

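Of the members past the threshold, Gpx2 and Gclm kept their calls in HFD against ND under 21 of 22 alternatives, all but the position score as a covariate, and each kept its direction under all 22. Srxn1 kept its call there under 20 and Gpx4 under 18. In FSP against HFD, Srxn1 kept its call under 17 and Gclm under 11. The causes of the moves below were not tested, except that leaving out a library or a group lowers the number of samples and dropping the filter adds genes.
With median-ratio scaling, 180 genes were higher and 167 lower in FSP against HFD, with 0 members higher and Nfe2l2 at -0.017. FSP against ND then gave Prdx1 0.059 and Srxn1 0.065, and HFD against ND gave 1093 genes higher, 922 lower, 1 member lower, and Gpx1 0.22, Nfe2l2 0.16 and Prdx1 0.026. With quantile normalization, FSP against HFD gave 194 genes and 2 members lower, FSP against ND 126 genes higher and 66 lower, and HFD against ND 1125 genes higher, with Gpx1 at 0.015 and Nfe2l2 at 0.041. With equal totals, FSP against HFD gave 45 genes and 0 members lower, FSP against ND 20 genes lower, and Nqo1 was -0.081 in HFD against ND. With equal totals outside mitochondrial genes, 166 genes were higher in FSP against HFD and 62 lower in FSP against ND, where Nfe2l2 was -0.015, and Gpx1 was 0.012 in HFD against ND.
With no filter on low values, FSP against HFD gave 86 genes higher, 31 lower and 0 members lower, FSP against ND 25 genes higher, and HFD against ND 1 member higher. With only the 2 groups compared in the fit, FSP against HFD gave 56 genes higher, 20 lower and 0 members either way, and FSP against ND 42 genes higher and 1 member lower (Gpx2, adjusted p = 0.0132). With the position score as a covariate, FSP against HFD and HFD against ND gave 0 genes and 0 members in either direction, FSP against ND 8 genes higher and 0 lower. Signs then reversed for Gpx4 (0.44) in FSP against HFD, for Nfe2l2 (-0.10) and Srxn1 (0.014) in FSP against ND, and for Gpx4 (-0.25) and Nqo1 (-0.35) in HFD against ND.
Whether the replicate numbers pair the libraries is not stated, and correlations of their deviations do not decide it, since the ranges overlap. Same-numbered libraries had r from -0.0994 to 0.454, 5 of 10 pairs over 0.1, and differently numbered ones from -0.616 to 0.647. The estimated number of fragments rose with the replicate number in each group. It ran from 3.18e+07 in HFD 1 to 3.718e+07 in HFD 4 and from 3.596e+07 in FSP 1 to 3.84e+07 in FSP 4. In ND it ran from 3.532e+07 in ND 1 to 3.712e+07 in ND 3. Whether same-numbered libraries share an order or batch was not tested. With the replicate number as a block, 651 genes were higher and 1706 lower in HFD against ND, 240 and 97 in FSP against HFD, and 54 and 23 in FSP against ND. Txnrd1 passed in HFD against ND (-0.75, adjusted p = 0.0144), Nqo1 was -0.068 there, and Nfe2l2 was -0.0057 in FSP against ND.
Leaving out each library in turn gave, in HFD against ND, 264 to 635 genes higher, 560 to 2043 lower, 1 to 2 members higher, Gpx1 from -0.20 to 0.28, Nfe2l2 from -0.18 to 0.046 and Nqo1 from -0.14 to 0.24. In FSP against HFD it gave 34 to 348 genes higher, 14 to 123 lower, 0 to 1 member higher and 0 to 1 lower, with Gclc from -0.018 to 0.48 and Gpx1 from -0.061 to 0.42. In FSP against ND it gave 11 to 108 genes higher, 2 to 93 lower, 0 to 1 member lower, Nfe2l2 from -0.031 to 0.11, Prdx1 from -0.11 to 0.020 and Srxn1 from -0.095 to 0.027. The log2 ratio differences there ran from -0.34 to 0.24 for Gclc over Gclm and from -0.057 to 0.13 for Srxn1 over Prdx1. No member is near the level where depth limits detection.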
